A study of Homo sapiens with 9 samples.

Results

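The genes described here are 44 DNA repair and checkpoint genes, chosen by symbol from a fixed list, and all 44 were found among the 61806 gene identifiers of a count table from HCT116 cells. The list was drawn up with earlier results of these data known. HCT116 is an established line of human colorectal carcinoma cells that lacks mismatch repair activity. The comparison was between 3 groups of 3 libraries each, and all of them had McCoy's 5A medium, bovine serum, the lipid reagent Lipofectamine RNAiMax and the batch label Day 3 in common. The groups were cells transfected with ORM1 siRNA 1 (ORM1 knockdown), cells transfected with ORM1 siRNA 2 (ORM1 knockdown, by a separate siRNA) and cells transfected with control siRNA. ORM1 encodes orosomucoid 1, an acute-phase plasma glycoprotein made mainly by the liver, and the question addressed was how transcription in these cells differed after its knockdown. Whether the replicates are separate cultures is not given in the labels, so each p-value weighs a difference against a spread between libraries that could be technical only.

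Cells repair a double-strand break either by homologous recombination, in which the broken ends are resected and a sister chromatid is used as template, or by end joining, in which the ends are ligated directly. The Fanconi pathway removes crosslinks that block replication forks, mismatch repair removes replication errors, and the kinases ATM and ATR halt the cell cycle until damage is mended. Recombination, Fanconi and replication checkpoint genes are, as background, transcribed mostly in S and G2 phase, whereas the Ku subunits of end joining are abundant throughout the cycle.

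The libraries held 60698684 to 71431723 counts each, and mitochondrially encoded genes took 8.02% to 8.62% of them. ORM1 had 0, 0 and 5 counts under siRNA 1, 8, 0 and 12 counts under siRNA 2, and 63, 56 and 59 counts under control siRNA, so that it was lower in every ORM1 siRNA library, with a log2 change of -5.09 (SE 1.06, adjusted p = 0.00287) under siRNA 1 and -3.20 (SE 0.90, adjusted p = 0.019) under siRNA 2. The related gene ORM2 had 19, 8 and 0 counts under siRNA 1 and 0, 8 and 14 under siRNA 2. Its control libraries had 38, 39 and 66 counts. In edgeR its log2 change was -2.38 (adjusted p = 0.0939) under siRNA 1 and -2.75 (adjusted p = 0.0657) under siRNA 2. In the mean of the siRNAs it was -2.57 (adjusted p = 0.0268). Whether the siRNAs acted on ORM2 or reads were shared with ORM1 was not tested. The value 4 occurs 11894 times in the table and the values 3 and 5 occur 6787 and 4317 times, and 1 count need not be 1 fragment. Of 9 colon epithelial markers, EPCAM, CDH1 and the keratins KRT8, KRT18 and KRT19 were abundant, VIL1 and LGALS4 were near 0, and the summed level was 3558 to 3729 CPM under siRNA 1, 3600.2 to 3799 CPM under siRNA 2 and 4203 to 4499 CPM under control siRNA. Against control siRNA the mean of both siRNAs had 3 of these markers higher and 3 lower, namely EPCAM, CDH1 and KRT20 higher and KRT8, KRT18 and KRT19 lower. CDH1 and KRT20 differed between the siRNAs, with log2 changes of 0.70 under siRNA 1 and 0.10 under siRNA 2 for CDH1 and of 2.27 and 0.16 for KRT20, which averaged 2.06 ± 0.289 CPM under siRNA 1, 0.473 ± 0.0201 CPM under siRNA 2 and 0.425 ± 0.183 CPM under control siRNA. Of 7 fibroblast markers COL1A1 alone exceeded 1 CPM in all libraries. COL1A2, DCN, LUM and PDGFRA were at or near 0, and COL3A1 and PDGFRB stayed below 1 CPM in every library. The summed level of the 7 markers was 48.0 to 50.01 CPM under siRNA 1, 41.5 to 44.7 CPM under siRNA 2 and 51.8 to 59.5 CPM under control siRNA. Leukocyte, endothelial and hepatocyte markers summed to under 2 CPM in every library, with CD3E and APOB at 0. The part of these differences in the results that follow was not tested.

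Calls among the 44 genes were mostly upward under either ORM1 siRNA. The gene with the highest log2 change was XRCC2, a recombination gene, and the genes called lower in the mean of both siRNAs were the kinase gene ATM and the ligase gene LIG4. Here a gene is called when its Benjamini-Hochberg adjusted p is below 0.05 in edgeR's quasi-likelihood test over the 20932 genes tested, and all 44 were tested. Against control siRNA, the mean of both siRNAs had 30 of 44 genes higher and 2 lower, whereas 16.2% and 15.3% of all tested genes were called higher and lower. Since the 44 genes were chosen with earlier results of these data known, such shares are given as a description only. All 44 genes exceeded 1 CPM in every library, whereas the tested genes include some below that level, such as LGALS4. With a minimum of 1 CPM in 3 libraries, 3410 genes were called higher and 3320 lower, beside 3387 and 3208 in the main test. Shares among genes of like level were not computed, so the contrast with all tested genes, here and below, may partly reflect level. Under siRNA 1, 20 of 44 were higher and 6 lower, beside 15.7% and 14.8% of all tested genes. The 6 lower genes became 3 without siRNA 1 replicate 3 and 3 without control replicate 3. Under siRNA 2, 32 of 44 were higher and 1 lower, beside 14.2% and 12.6% of all tested genes. Without control replicate 2 the lower genes were 2 under siRNA 2, and in the mean of the siRNAs 1 was lower without siRNA 1 replicate 3, control replicate 1 or control replicate 3. The median log2 change of the 44 was 0.24 in the mean of the siRNAs, 0.14 under siRNA 1 and 0.29 under siRNA 2, and the median over all tested genes was between -0.0035 and 0.0073 in these comparisons. The changes were small, since the highest was 1.72-fold (XRCC2 under siRNA 1), and the precision of the libraries was high, with a median coefficient of variation over the 44 genes of 3.85% under siRNA 1, 4.41% under siRNA 2 and 3.49% under control siRNA.

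The pair of siRNAs shares the control libraries, so each is described by its own values. BRCA1, BRCA2, PALB2, BRIP1, XRCC2, EXO1, BLM, MSH6 and CHEK2 were among the 19 genes called higher in each comparison with control. LIG4 was the only gene called lower under both, and RAD51C was called lower under siRNA 1 and higher under siRNA 2. Another 12 genes were called higher under siRNA 2 and not called under siRNA 1, and all of these but RAD54B, FANCE and FANCM also differed between the siRNAs. RAD50, ATM, ATR and ERCC1 were called lower under siRNA 1 and not called under siRNA 2, and all but ATM differed between the siRNAs. NBN was called higher under siRNA 1, and its difference between the siRNAs was not called. BARD1, FANCB, FANCC, FANCF, MSH3 and PMS2, 6 genes in all, were called under neither. The shares of all tested genes with these joint patterns were not computed, so the counts of joint patterns are a description only. All siRNA 1 libraries lay above all control libraries in 24 of the 44 genes and below them in 6, beside 22.6% and 21.1% of all tested genes. All siRNA 2 libraries lay above all control libraries in 36 of the 44 genes and below them in 1, beside 19.9% and 19.3% of all tested genes. The summed level of the 44 genes, in TMM-scaled counts per library size (CPM), was 4427 to 4470.1 under siRNA 1, 4879.7 to 4999.9 under siRNA 2 and 4175 to 4222 under control siRNA. For the roles with 0 genes called lower against control in edgeR, the count at an unadjusted p under 0.05 was also 0, except for 1 gene each in Fanconi (FANCC, siRNA 1), resection and unwinding (RAD50), mismatch repair (MSH3) and single-strand break and excision repair (ERCC1), the last 3 in the mean of the siRNAs. DESeq2 and limma-voom gave 0 lower genes in those roles too, except for FANCC under siRNA 1 with DESeq2. In these bulk libraries fewer cells of a type and less RNA per cell cannot be told apart, and this holds also for cells in S or G2 phase.

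**Figure D1:**
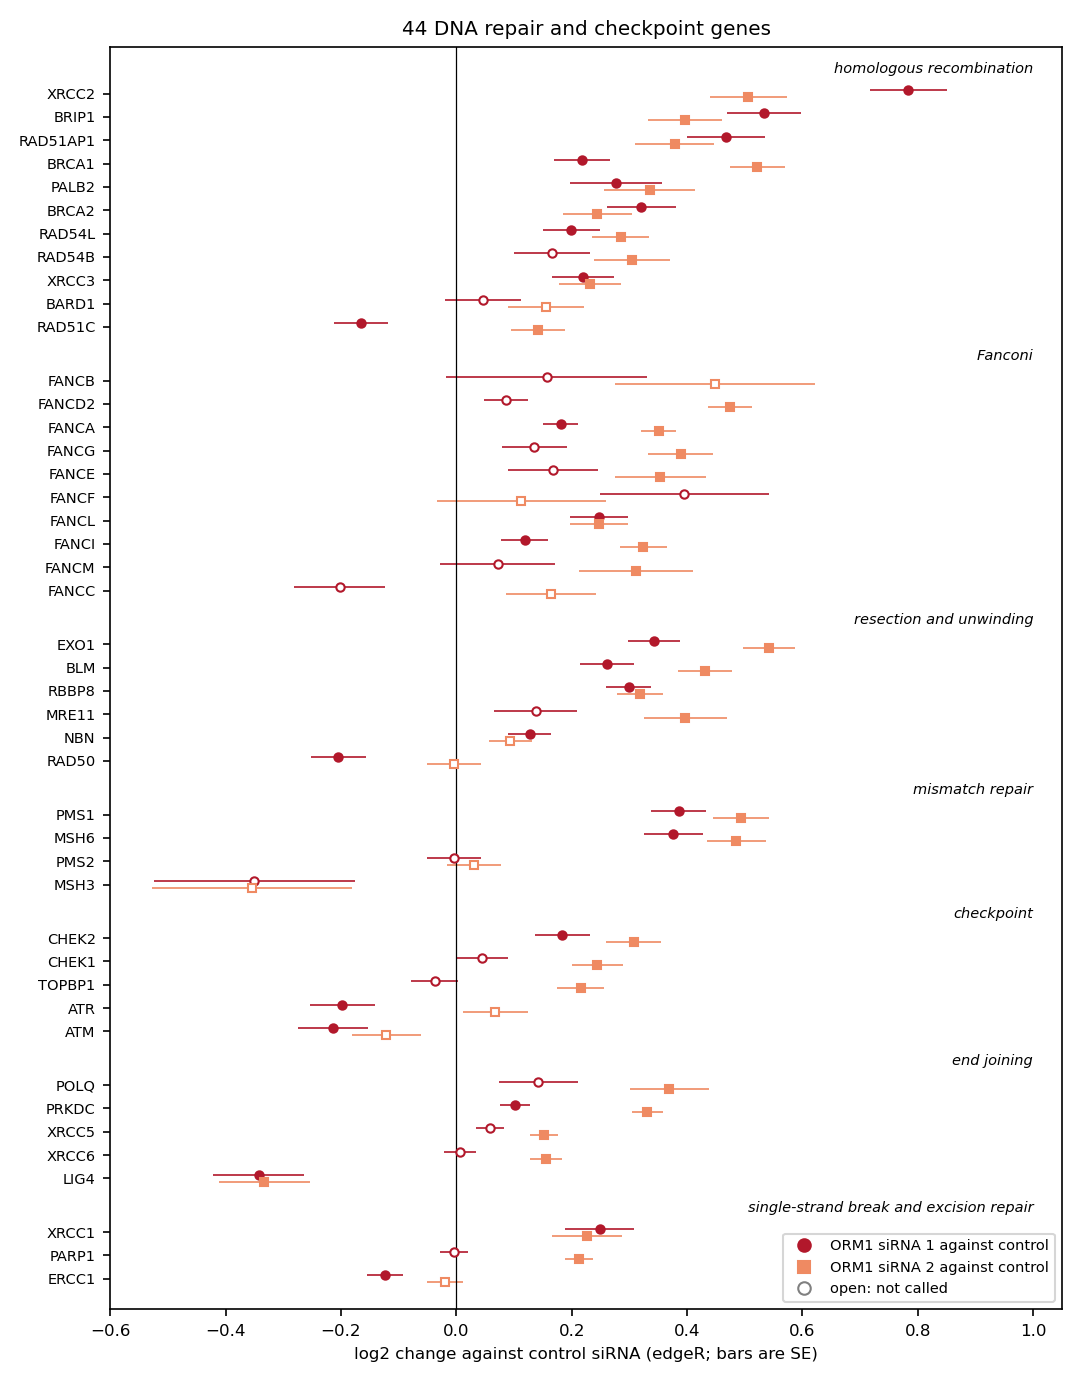
Log2 change of each of the 44 genes against control siRNA, in ORM1 siRNA 1 (circles) and ORM1 siRNA 2 (squares), grouped by role. Bars are standard errors from edgeR, filled symbols passed the adjusted p of 0.05, and most symbols lie right of 0, with LIG4 the gene that passed left of it under both siRNAs.

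The siRNAs were also set directly against each other, a comparison that does not use control levels, although the control libraries enter its scaling and its estimate of the spread. XRCC2 was called higher under siRNA 1 than under siRNA 2, and 20 genes were lower, beside 8.09% higher and 9.83% lower among all tested genes, and without siRNA 2 replicate 3 the higher genes were 0. The median log2 difference, siRNA 1 minus siRNA 2, was -0.13, against 0.0093 over all tested genes. The lower genes were 2 of 11 in homologous recombination, 5 of 10 Fanconi genes, 4 of 6 in resection and unwinding, 3 of 5 checkpoint genes, 4 of 5 in end joining and 2 of 3 in single-strand break and excision repair. Of the 4 mismatch repair genes 0 were called between the siRNAs by edgeR, DESeq2 or limma-voom, and 1, PMS1, had an unadjusted p under 0.05 in edgeR.

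**Figure D2:**
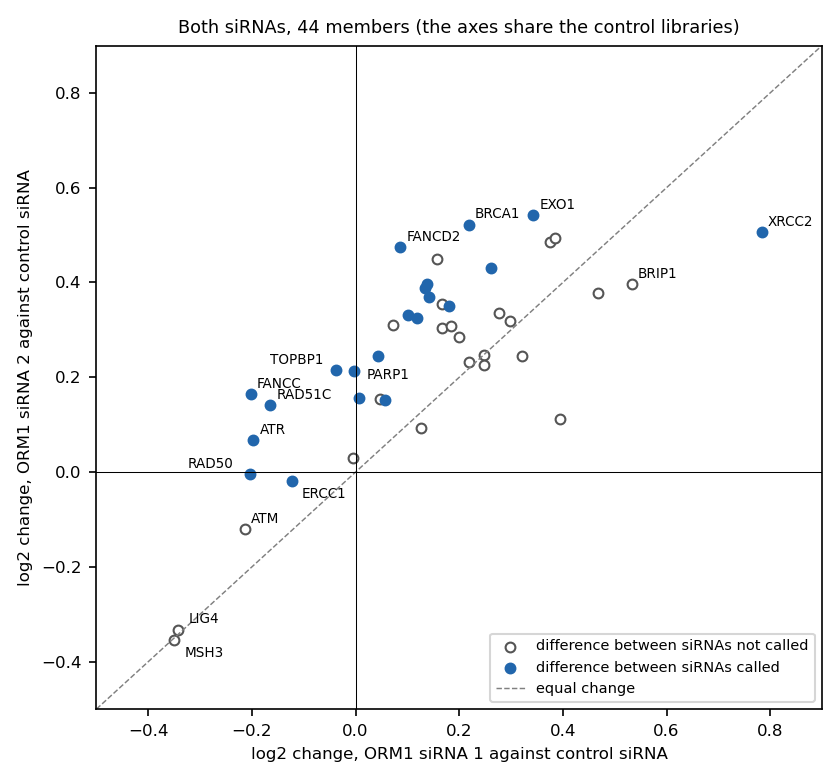
Log2 change against control siRNA under ORM1 siRNA 1 (horizontal axis) and ORM1 siRNA 2 (vertical axis) for the 44 genes. Filled points differed between the siRNAs, the dashed line marks equal change, and 36 points lie above it. The log2 difference, siRNA 1 minus siRNA 2, was positive in 8 of the 44 genes and in 10777 of all 20932 tested genes. Both axes use the same control libraries, so no likeness of the siRNAs is read from the cloud.

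The start regions of these genes were read for the short words to which cell cycle regulators bind. RefSeq promoter windows of GRCh38.p14, from 250 bases before to 50 bases after the start, were matched for 39 of the 44 genes. An E2F-like word was TTTGGCGC, TTTCGCGC, TTTCCCGC or TTTGCCGC on either strand, and E2F is the factor family that turns on S phase genes. It was present in 10 of 39 windows (25.6%), against 908 of 27305 windows (3.3%) of all genes in the promoter set. That set was not limited to genes of the count table or to genes tested here. The share was 24.0% (6 of 25) in windows of genes called higher in the mean of the siRNAs and 28.6% (4 of 14) in windows of genes not called higher. CCAAT, on either strand, was in 46.2% of the 39 windows against 35.7% of all, with 56.0% (14 of 25) in genes called higher and 28.6% (4 of 14) in the others. The CHR-like words TTTGAA and TTCGAA, which occur in G2 and mitosis genes, were in 12.8% of the 39 windows against 16.6% of all. In 21 windows of S phase and replication genes the shares were 66.7% E2F-like, 61.9% CCAAT and 9.5% CHR-like. In 18 windows of G2 and mitosis genes they were 16.7%, 83.3% and 72.2%. The E2F-like and CCAAT shares of the repair genes were thus below those of the S phase list. A match is a description of the letters, not evidence that a factor binds there. The 30 bases around each E2F-like match follow, 5′ to 3′ on the strand of the gene with the match in capitals, to set the words of genes called higher in the mean of the siRNAs (XRCC2, FANCA, FANCD2, EXO1, MSH6, XRCC6) beside those of genes not called higher (FANCC, MSH3, PMS2, TOPBP1).
XRCC2: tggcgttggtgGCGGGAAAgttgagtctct
FANCA: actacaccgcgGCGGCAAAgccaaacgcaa
FANCC: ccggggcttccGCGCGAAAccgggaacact
FANCC: ttcgtcggaatTTTCCCGCgacgccgcggg
FANCD2: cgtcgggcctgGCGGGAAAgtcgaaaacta
EXO1: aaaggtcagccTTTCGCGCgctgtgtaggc
MSH6: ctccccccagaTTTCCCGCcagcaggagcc
MSH3: gcggtcaagTTTGGCGCGAAAttgtggccg
PMS2: cgggaagtattTTTGCCGCcccgcccggaa
TOPBP1: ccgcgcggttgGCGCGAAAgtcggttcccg
XRCC6: tgtccaagttggtcgcttccctGCGCCAAA
These stretches lie at chr7:152676102-152676131 (minus strand) for XRCC2, chr16:89816801-89816830 (minus strand) for FANCA, chr9:95317863-95317892 (minus strand) and chr9:95317737-95317766 (minus strand) for FANCC, chr3:10026424-10026453 (plus strand) for FANCD2 and chr1:241848197-241848226 (plus strand) for EXO1. The others lie at chr2:47783137-47783166 (plus strand) for MSH6, chr5:80654536-80654565 (plus strand) for MSH3, chr7:6009131-6009160 (minus strand) for PMS2, chr3:133661930-133661959 (minus strand) for TOPBP1 and chr22:41621315-41621344 (plus strand) for XRCC6. In MSH3 the capitals cover a pair of overlapping matches on opposite strands, TTTGGCGC and GCGCGAAA.

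Of the 11 homologous recombination genes, 9 were called higher and 0 lower in the mean of the siRNAs, beside 16.2% and 15.3% of all tested genes, with BARD1 and RAD51C not called and a median log2 change of 0.28. Under siRNA 1, 8 higher and 1 lower were called, beside 15.7% and 14.8% of all tested genes. Under siRNA 2, 10 higher and 0 lower were called, beside 14.2% and 12.6%. XRCC2 (chr7:152644779-152676165, GRCh38), a paralogue of the strand-exchange recombinase, was at 42.5, 42.0 and 39.2 CPM under siRNA 1, 33.0, 37.6 and 31.6 CPM under siRNA 2, and 24.6, 24.1 and 23.2 CPM under control siRNA. Every siRNA 1 library lay above every siRNA 2 library, and both groups lay above all controls. The log2 change was 0.78 (SE 0.07, adjusted p = 2.91e-06) under siRNA 1 and 0.51 (SE 0.07, adjusted p = 0.000127) under siRNA 2, and the difference between the siRNAs was 0.28 (SE 0.07, adjusted p = 0.0114). BRIP1, a helicase that binds BRCA1, was at 59.9, 55.9 and 53.5 CPM under siRNA 1, 53.0, 46.1 and 54.8 CPM under siRNA 2, and 38.4, 38.3 and 40.3 CPM under control siRNA. The siRNA groups overlapped each other and both stood above the controls, with log2 changes of 0.53 and 0.40. RAD51AP1, which stimulates strand invasion, was at 34.3, 37.4 and 33.8 CPM under siRNA 1, 36.2, 30.1 and 33.0 CPM under siRNA 2, and 25.2, 25.5 and 25.6 CPM under control siRNA. It showed the same layout, with the controls close together and below both siRNA groups, at 0.47 and 0.38 on the log2 scale.

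BRCA1, whose protein promotes resection and loading of the recombinase, was at 49.0, 53.9 and 52.7 CPM under siRNA 1, 66.7, 62.9 and 62.4 CPM under siRNA 2, and 46.4, 44.4 and 42.9 CPM under control siRNA. The 3 groups did not overlap, and the siRNA 2 libraries were the highest, with log2 changes of 0.22 (SE 0.05, adjusted p = 0.00432) under siRNA 1 and 0.52 (SE 0.05, adjusted p = 9.41e-06) under siRNA 2. Between the siRNAs the difference was -0.30 (SE 0.05, adjusted p = 0.000944). RAD51C, another recombinase paralogue, took opposite directions, at 43.8, 44.9 and 42.5 CPM under siRNA 1, 52.8, 54.6 and 54.8 CPM under siRNA 2, and 46.0, 49.6 and 51.4 CPM under control siRNA. All siRNA 1 libraries lay below and all siRNA 2 libraries above the controls, at -0.16 (SE 0.05, adjusted p = 0.0177) and 0.14 (SE 0.05, adjusted p = 0.0404), so that the mean of the siRNAs was near 0 at -0.01. The gap between the siRNAs was -0.31 (SE 0.05, adjusted p = 0.000706).

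The remaining recombination genes had smaller log2 changes in the mean of the siRNAs, apart from RAD51C. BRCA2, which loads the recombinase onto DNA, averaged 36.8 ± 1.20 CPM under siRNA 1, 34.9 ± 1.86 CPM under siRNA 2 and 29.5 ± 1.87 CPM under control siRNA (SD, n = 3 each), and PALB2, which links BRCA1 to BRCA2, averaged 19.4 ± 1.17 CPM under siRNA 1, 20.2 ± 0.528 CPM under siRNA 2 and 16.0 ± 1.31 CPM under control siRNA. XRCC3, also a recombinase paralogue, averaged 34.7 ± 0.677 CPM under siRNA 1, 35.0 ± 1.70 CPM under siRNA 2 and 29.8 ± 1.44 CPM under control siRNA, and the translocase RAD54L averaged 33.8 ± 1.55 CPM under siRNA 1, 35.8 ± 0.583 CPM under siRNA 2 and 29.4 ± 0.702 CPM under control siRNA. These 4 genes were called higher under both siRNAs, with log2 changes of 0.20 to 0.34. The related translocase RAD54B was called higher under siRNA 2 at 0.30 and was at 0.17 (adjusted p = 0.0817) under siRNA 1. BARD1, the partner of BRCA1 in its ubiquitin ligase, averaged 29.6 ± 1.73 CPM under siRNA 1, 32.0 ± 1.39 CPM under siRNA 2 and 28.7 ± 2.03 CPM under control siRNA and was called under neither, with log2 changes of 0.05 and 0.16. The XRCC2 call between the siRNAs was lost without siRNA 2 replicate 3 (adjusted p 0.0556). The RAD51C call under siRNA 1 was lost without siRNA 1 replicate 3 or control replicates 2 or 3 (adjusted p 0.0578 to 0.0789). The RAD51C call under siRNA 2 was lost without siRNA 1 replicate 1, siRNA 2 replicates 2 or 3 or control replicates 1 or 2, or with scaling by library totals, with no count filter or with only the compared groups in the fit (adjusted p 0.0516 to 0.143). The PALB2 call under siRNA 1 was lost without siRNA 1 replicates 2 or 3 or control replicate 3 (adjusted p 0.0616 to 0.0788). The RAD54B call under siRNA 1 was made without siRNA 1 replicate 1 (adjusted p 0.0266).

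**Figure D3:**
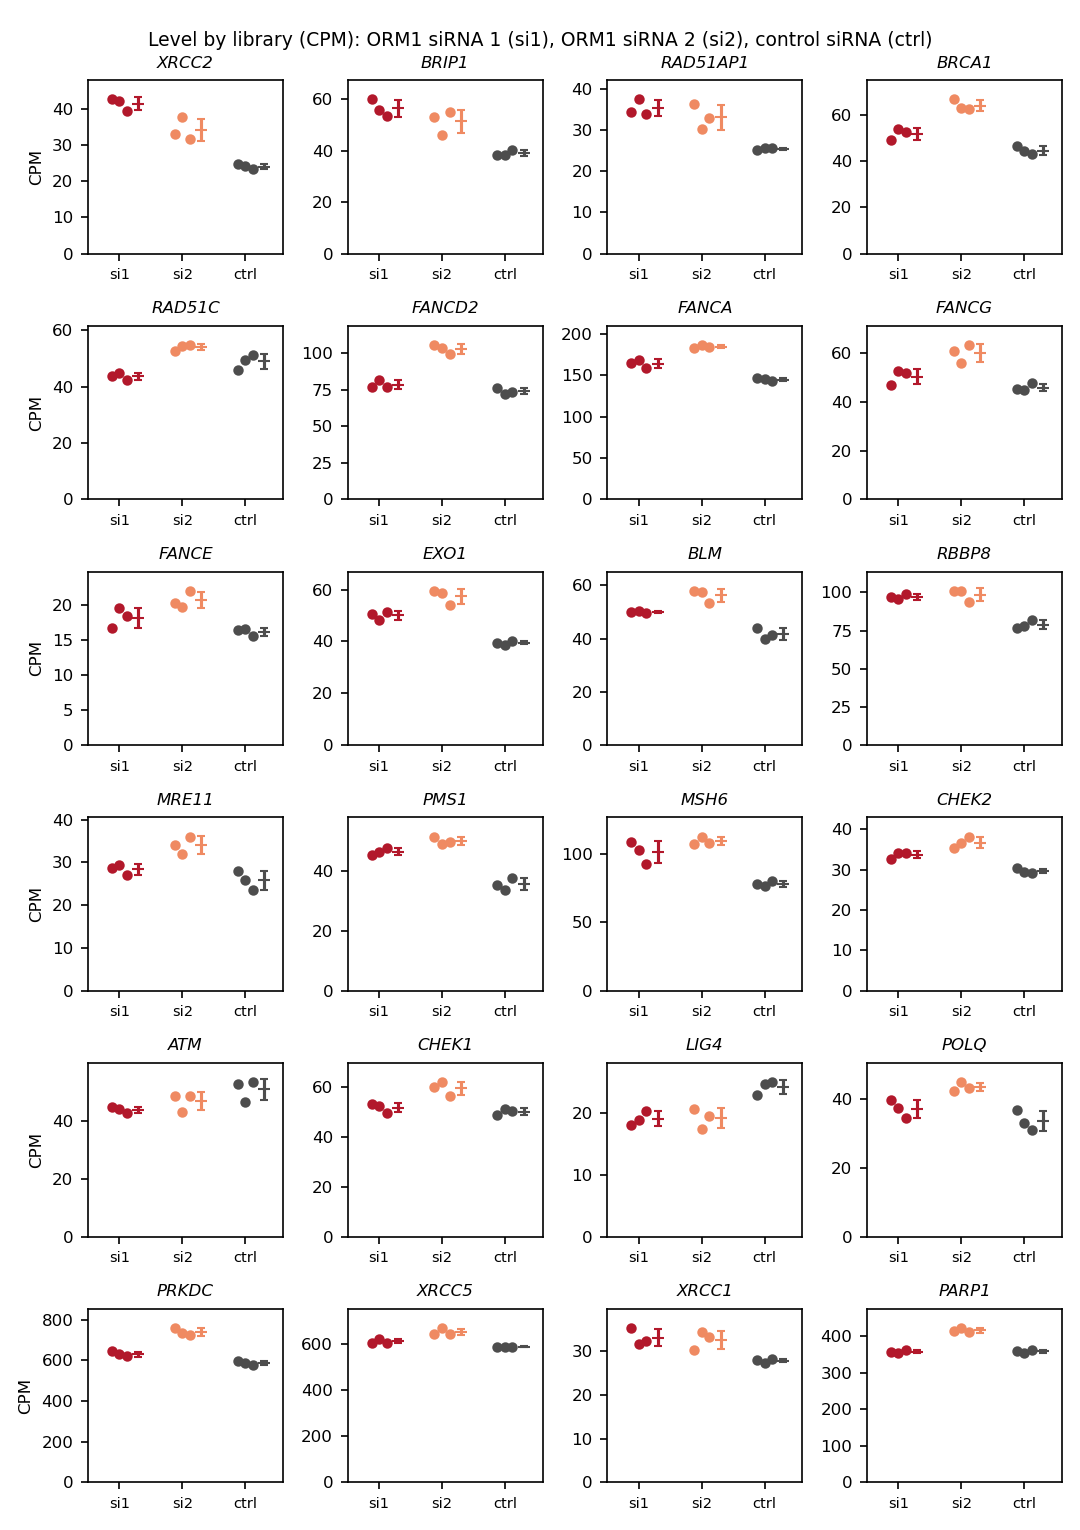
Level of 24 of the genes in each library, in CPM on axes that start at 0, for ORM1 siRNA 1 (si1), ORM1 siRNA 2 (si2) and control siRNA (ctrl). Points are libraries, and the bar beside them is the mean with its SD (n = 3). The steps are small relative to the level, and in LIG4 and ATM the control libraries are the highest group by mean.

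Fanconi genes were called higher in 3 of 10 cases under siRNA 1 and in 7 of 10 under siRNA 2, and FANCD2 had the lowest difference, siRNA 1 minus siRNA 2, of the 44 genes. In the mean of the siRNAs, 6 of 10 were called higher and 0 lower, with a median log2 change of 0.26, and 0 were lower under either siRNA alone. Of all tested genes, 15.7% were higher and 14.8% lower under siRNA 1 and 14.2% and 12.6% under siRNA 2. The shares in the mean of the siRNAs were 16.2% and 15.3%. FANCD2, which with FANCI forms the clamp that is ubiquitinated at crosslinks, was at 76.8, 81.9 and 76.9 CPM under siRNA 1, 105, 104 and 99.1 CPM under siRNA 2, and 76.4, 72.2 and 73.3 CPM under control siRNA. The siRNA 2 libraries stood well apart, whereas the siRNA 1 libraries lay just above the highest control. Its log2 change was 0.47 (SE 0.04, adjusted p = 3.29e-06) under siRNA 2 and 0.09 (SE 0.04, adjusted p = 0.118) under siRNA 1, and the difference between the siRNAs was -0.39 (SE 0.04, adjusted p = 2.96e-05). FANCI, its partner, was at 164, 162 and 161 CPM under siRNA 1, 201, 182 and 179 CPM under siRNA 2, and 153, 145 and 151 CPM under control siRNA. Its 3 groups did not overlap, and the log2 change was 0.12 under siRNA 1 and 0.32 under siRNA 2.

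The other Fanconi genes named by size encode subunits of the core complex that ubiquitinates this clamp. FANCA was at 165, 169 and 158 CPM under siRNA 1, 183, 186 and 184 CPM under siRNA 2, and 146, 145 and 142 CPM under control siRNA. Its 3 groups did not overlap, at 0.18 (SE 0.03, adjusted p = 0.000657) under siRNA 1 and 0.35 (SE 0.03, adjusted p = 5.5e-06) under siRNA 2, and its difference between the siRNAs was called (log2 -0.17). FANCG was at 46.7, 52.4 and 51.6 CPM under siRNA 1, 60.6, 56.0 and 63.1 CPM under siRNA 2, and 45.1, 44.6 and 47.5 CPM under control siRNA. The siRNA 1 and control libraries overlapped, while all siRNA 2 libraries were higher, at 0.39 (adjusted p = 0.000265). FANCE was at 16.7, 19.5 and 18.3 CPM under siRNA 1, 20.3, 19.7 and 21.99 CPM under siRNA 2, and 16.5, 16.5 and 15.5 CPM under control siRNA. Both siRNA groups lay above the controls, although for siRNA 1 by little, and the call was made under siRNA 2 at 0.35 (adjusted p = 0.00496).

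FANCC, also of the core complex, was at 29.4, 26.2 and 23.4 CPM under siRNA 1, 33.1, 33.9 and 34.9 CPM under siRNA 2, and 28.5, 32.3 and 30.1 CPM under control siRNA. Its siRNA 2 libraries lay above all controls and its siRNA 1 libraries reached below them, and neither comparison with control was called (log2 -0.20 and 0.16), but the difference between the siRNAs was, at -0.37 (SE 0.08, adjusted p = 0.00622). FANCL, the ubiquitin ligase subunit, averaged 62.8 ± 1.80 CPM under siRNA 1, 62.8 ± 3.90 CPM under siRNA 2 and 52.9 ± 2.35 CPM under control siRNA and was called higher under both. FANCM, a translocase that anchors the complex, averaged 19.96 ± 2.80 CPM under siRNA 1, 23.6 ± 1.03 CPM under siRNA 2 and 19.0 ± 1.65 CPM under control siRNA and was called higher under siRNA 2. FANCB averaged 12.7 ± 3.71 CPM under siRNA 1, 15.6 ± 0.677 CPM under siRNA 2 and 11.4 ± 0.929 CPM under control siRNA and FANCF 8.53 ± 1.29 CPM under siRNA 1, 7.01 ± 0.259 CPM under siRNA 2 and 6.49 ± 1.16 CPM under control siRNA, neither was called, and FANCB had the widest spread of the 44 genes under siRNA 1, where, singled out after its values were seen, it was at 8.46 CPM in siRNA 1 replicate 1 and at 14.6 and 15.1 CPM in the other libraries of that siRNA. The FANCB call in the mean of the siRNAs was made without siRNA 1 replicate 1 (adjusted p 0.00218). The FANCB call under siRNA 1 was made without siRNA 1 replicate 1 (adjusted p 0.0133). The FANCB call under siRNA 2 was made without siRNA 1 replicate 1, or with DESeq2 or with only the compared groups in the fit (adjusted p 0.00277 to 0.0222). The FANCC call under siRNA 1 was made without siRNA 1 replicate 1, or with DESeq2 or with a minimum of 1 CPM in 3 libraries (adjusted p 0.0138 to 0.0494). The FANCE call in the mean of the siRNAs was lost without control replicate 3 (adjusted p 0.0552). The FANCG call under siRNA 1 was made without siRNA 1 replicate 1 (adjusted p 0.0283). The FANCF call in the mean of the siRNAs was made without control replicate 2 (adjusted p 0.0431). The FANCF call under siRNA 1 was made without control replicate 2, or with DESeq2, with limma-voom or with a minimum of 1 CPM in 3 libraries (adjusted p 0.0175 to 0.0425). The FANCI call under siRNA 1 was lost without siRNA 1 replicates 1, 2 or 3, siRNA 2 replicate 2 or control replicates 1, 2 or 3, or with median-of-ratios scaling, with scaling by library totals or with no count filter (adjusted p 0.051 to 0.157). The FANCM call under siRNA 2 was lost without siRNA 2 replicates 1, 2 or 3 or control replicates 1, 2 or 3, or with scaling by library totals or with no count filter (adjusted p 0.0518 to 0.136). The FANCM call between the siRNAs was made without siRNA 1 replicate 2 (adjusted p 0.0266).

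Resection and unwinding genes include the nucleases and helicases that expose single-stranded DNA at a break. In the mean of the siRNAs 5 of 6 were called higher and 0 lower, beside 16.2% and 15.3% of all tested genes. The median log2 change was 0.29. Under siRNA 1 the counts were 4 higher and 1 lower, beside 15.7% and 14.8% of all tested genes. Under siRNA 2 they were 4 higher and 0 lower, beside 14.2% and 12.6%. EXO1, the exonuclease of long-range resection, was at 50.7, 48.3 and 51.3 CPM under siRNA 1, 59.6, 58.6 and 54.2 CPM under siRNA 2, and 39.6, 38.8 and 40.0 CPM under control siRNA. The 3 groups did not overlap, with log2 changes of 0.34 (SE 0.05, adjusted p = 0.000111) and 0.54 (SE 0.05, adjusted p = 4.15e-06). BLM, the helicase of Bloom syndrome, was at 50.05, 50.5 and 49.4 CPM under siRNA 1, 57.9, 57.4 and 53.3 CPM under siRNA 2, and 43.95, 39.8 and 41.3 CPM under control siRNA. Its groups did not overlap either, and siRNA 2 was again the highest, at 0.26 under siRNA 1 and 0.43 under siRNA 2. RBBP8 encodes CtIP, which starts resection, and was at 96.7, 95.3 and 99.1 CPM under siRNA 1, 101, 101 and 93.4 CPM under siRNA 2, and 76.5, 78.2 and 82.0 CPM under control siRNA. Here the siRNA groups overlapped and both lay above the controls, at 0.30 and 0.32.

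The 3 subunits of the MRN complex, which senses breaks and starts their resection, gave different calls. MRE11, its nuclease, was at 28.8, 29.4 and 27.0 CPM under siRNA 1, 34.1, 31.8 and 36.0 CPM under siRNA 2, and 28.0, 25.8 and 23.6 CPM under control siRNA. The siRNA 2 libraries were above all controls, at 0.40 (SE 0.07, adjusted p = 0.00133), and the siRNA 1 libraries overlapped them, at 0.14 (adjusted p = 0.184). RAD50, its long coiled-coil subunit, was at 81.7, 78.7 and 79.1 CPM under siRNA 1, 97.7, 85.6 and 92.0 CPM under siRNA 2, and 94.2, 87.6 and 94.2 CPM under control siRNA. The siRNA 1 libraries lay below all others, at -0.20 (SE 0.05, adjusted p = 0.00561), whereas the siRNA 2 and control libraries overlapped, and the siRNAs differed by -0.20 (SE 0.05, adjusted p = 0.0113). NBN, the subunit that recruits ATM, averaged 82.1 ± 3.61 CPM under siRNA 1, 80.2 ± 1.57 CPM under siRNA 2 and 75.2 ± 1.52 CPM under control siRNA, with 0.13 under siRNA 1, which was called, and 0.09 (adjusted p = 0.0879) under siRNA 2. The BLM call between the siRNAs was lost without siRNA 1 replicates 1, 2 or 3 or siRNA 2 replicates 1 or 2, or with upper-quartile scaling or with scaling by library totals (adjusted p 0.0518 to 0.0839). The MRE11 call between the siRNAs was lost without siRNA 1 replicates 1 or 3 or siRNA 2 replicates 1 or 3 (adjusted p 0.06 to 0.103). The RAD50 call in the mean of the siRNAs was made without siRNA 2 replicate 1 or control replicate 2, or with scaling by library totals (adjusted p 0.0215 to 0.0474). The NBN call in the mean of the siRNAs was lost without control replicate 2 (adjusted p 0.0939). The NBN call under siRNA 1 was lost without siRNA 1 replicate 3 or control replicate 2 (adjusted p 0.0787 to 0.122).

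Of the 4 mismatch repair genes, 2 were called higher in the mean of the siRNAs and 0 lower, with the same counts under either siRNA alone. Beside them, 16.2% of all tested genes were higher and 15.3% lower in the mean of the siRNAs. The shares were 15.7% and 14.8% under siRNA 1 and 14.2% and 12.6% under siRNA 2. PMS1, a MutL homologue, was at 45.3, 46.5 and 47.8 CPM under siRNA 1, 51.5, 49.1 and 49.9 CPM under siRNA 2, and 35.5, 33.7 and 37.7 CPM under control siRNA. Its 3 groups did not overlap, at 0.39 (SE 0.05, adjusted p = 7.14e-05) and 0.49 (SE 0.05, adjusted p = 1.38e-05). MSH6, which recognises base mismatches, was at 109, 103 and 92.5 CPM under siRNA 1, 107, 113 and 108 CPM under siRNA 2, and 78.0, 76.3 and 80.0 CPM under control siRNA. Its siRNA groups overlapped each other and lay above all controls, at 0.38 (SE 0.05, adjusted p = 0.000132) and 0.49 (SE 0.05, adjusted p = 2.34e-05). PMS2, the endonuclease subunit, averaged 34.7 ± 0.990 CPM under siRNA 1, 35.5 ± 0.922 CPM under siRNA 2 and 34.8 ± 1.04 CPM under control siRNA, so that the groups overlapped and the log2 changes were 0.00 and 0.03. Counts of PMS2 depend on how reads shared with its copies were treated, and PMS2CL and PMS2P1 held 62.84% and 43.96% as many counts as PMS2. MSH3, which recognises larger loops, averaged 3.87 ± 0.732 CPM under siRNA 1, 3.85 ± 0.577 CPM under siRNA 2 and 4.93 ± 0.562 CPM under control siRNA. These mean CPM values, not divided by length, were the lowest of the 44 genes. The MSH3 groups overlapped, and the log2 change of -0.35 in the mean of the siRNAs missed the threshold (adjusted p = 0.0953). The MSH3 call in the mean of the siRNAs was made without siRNA 1 replicate 1 (adjusted p 0.0496).

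Among checkpoint genes the effector kinase genes CHEK1 and CHEK2 were called higher and ATM lower in the mean of the siRNAs. These were 2 higher and 1 lower of 5, beside 16.2% and 15.3% of all tested genes. Under siRNA 1 the counts were 1 higher and 2 lower, beside 15.7% and 14.8% of all tested genes. Under siRNA 2 they were 3 higher and 0 lower, beside 14.2% and 12.6%. CHEK2, the effector kinase of ATM, was at 32.7, 34.1 and 34.2 CPM under siRNA 1, 35.4, 36.5 and 38.2 CPM under siRNA 2, and 30.3, 29.4 and 29.2 CPM under control siRNA. Its groups did not overlap, at 0.18 (SE 0.05, adjusted p = 0.0114) under siRNA 1 and 0.31 (SE 0.05, adjusted p = 0.000452) under siRNA 2. CHEK1, the effector kinase of ATR, was at 53.4, 52.3 and 49.7 CPM under siRNA 1, 60.0, 62.0 and 56.6 CPM under siRNA 2, and 48.9, 51.4 and 50.4 CPM under control siRNA. The siRNA 1 libraries overlapped the controls, and the siRNA 2 libraries were above them, at 0.24 (SE 0.04, adjusted p = 0.00146), with a called difference between the siRNAs of -0.20.

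ATM, the kinase activated by double-strand breaks, was at 44.6, 43.9 and 42.6 CPM under siRNA 1, 48.4, 43.0 and 48.5 CPM under siRNA 2, and 52.5, 46.5 and 53.2 CPM under control siRNA. The siRNA 1 libraries lay below all controls and the siRNA 2 libraries overlapped both groups, at -0.21 (SE 0.06, adjusted p = 0.0179) and -0.12 (SE 0.06, adjusted p = 0.177), and the mean of the siRNAs was -0.17 (SE 0.05, adjusted p = 0.0273). ATR, the kinase activated by stalled forks, was at 46.6, 44.4 and 44.5 CPM under siRNA 1, 59.6, 53.1 and 50.2 CPM under siRNA 2, and 51.8, 50.9 and 52.7 CPM under control siRNA. It was below all controls under siRNA 1, at -0.20 (SE 0.06, adjusted p = 0.0189), and overlapped them under siRNA 2, at 0.07, and the siRNAs differed by -0.26 (SE 0.06, adjusted p = 0.0063). TOPBP1, which activates ATR, was at 102, 94.7 and 101 CPM under siRNA 1, 119.6, 123 and 112 CPM under siRNA 2, and 102, 99.96 and 103 CPM under control siRNA. The siRNA 1 and control libraries overlapped, and siRNA 2 stood above them at 0.22 (SE 0.04, adjusted p = 0.00179), with a difference between the siRNAs of -0.25 (SE 0.04, adjusted p = 0.00107). The ATM call in the mean of the siRNAs was lost without siRNA 1 replicate 3 or control replicates 1 or 3, or with no count filter (adjusted p 0.054 to 0.142). The ATM call under siRNA 1 was lost without siRNA 1 replicate 3 or control replicates 1 or 3 (adjusted p 0.0611 to 0.0775). The ATM call under siRNA 2 was made without control replicate 2 (adjusted p 0.0465). The CHEK1 call in the mean of the siRNAs was lost without control replicate 1 (adjusted p 0.062). The ATR call under siRNA 1 was lost without siRNA 1 replicates 2 or 3 or control replicate 3 (adjusted p 0.0551 to 0.0672). The TOPBP1 call in the mean of the siRNAs was made without siRNA 1 replicate 2 or siRNA 2 replicate 3 (adjusted p 0.0325 to 0.0413).

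End joining held the most abundant of the 44 genes by control level per length, XRCC6 and XRCC5, and the one called lower under both siRNAs, LIG4. In the mean of the siRNAs 4 of 5 were called higher and 1 lower, beside 16.2% and 15.3% of all tested genes. Under siRNA 1 there were 1 higher and 1 lower, beside 15.7% and 14.8% of all tested genes. Under siRNA 2 there were 4 higher and 1 lower, beside 14.2% and 12.6%. LIG4 (chr13:108207439-108218368, GRCh38), the ligase that seals the joined ends, was at 18.0, 18.8 and 20.4 CPM under siRNA 1, 20.6, 17.4 and 19.5 CPM under siRNA 2, and 22.8, 24.7 and 25.0 CPM under control siRNA. Both siRNA groups lay below all controls and overlapped each other, at -0.34 (SE 0.08, adjusted p = 0.00562) under siRNA 1 and -0.33 (SE 0.08, adjusted p = 0.00765) under siRNA 2. XRCC4, the partner that stabilises LIG4 and no member of the 44, was higher under both, at 52.5 ± 0.544 CPM under siRNA 1, 53.5 ± 1.82 CPM under siRNA 2 and 34.6 ± 2.23 CPM under control siRNA. POLQ, the polymerase of the alternative pathway that joins ends by microhomology, was at 39.6, 37.2 and 34.3 CPM under siRNA 1, 42.3, 44.7 and 43.0 CPM under siRNA 2, and 36.8, 33.0 and 31.0 CPM under control siRNA. Its siRNA 2 libraries were above all others and its siRNA 1 libraries overlapped the controls, at 0.37 (adjusted p = 0.00152) and 0.14 (adjusted p = 0.147).

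PRKDC, the catalytic subunit of DNA-dependent protein kinase, was at 643, 629 and 619 CPM under siRNA 1, 758, 736 and 723 CPM under siRNA 2, and 598, 586 and 578 CPM under control siRNA. The groups did not overlap, at 0.10 (SE 0.03, adjusted p = 0.0118) under siRNA 1 and 0.33 (SE 0.03, adjusted p = 3.23e-06) under siRNA 2, and the siRNAs differed by -0.23 (SE 0.03, adjusted p = 0.000105). XRCC5 and XRCC6 encode the Ku subunits that hold the broken end. XRCC5 was at 607, 622 and 607 CPM under siRNA 1, 646, 670.0 and 645 CPM under siRNA 2, and 589.6, 589 and 586 CPM under control siRNA. Its groups did not overlap, although the steps were small, at 0.06 (adjusted p = 0.0981) and 0.15 (adjusted p = 0.000556). XRCC6 was at 793, 809.9 and 815 CPM under siRNA 1, 884, 920.3 and 878 CPM under siRNA 2, and 781, 803 and 823 CPM under control siRNA. The siRNA 1 libraries fell within the range of the controls and the siRNA 2 libraries lay above it, at 0.16 (adjusted p = 0.00111). The POLQ call under siRNA 1 was made without control replicate 1 (adjusted p 0.0308). The POLQ call between the siRNAs was lost without siRNA 1 replicates 2 or 3, siRNA 2 replicates 1, 2 or 3 or control replicate 2, or with upper-quartile scaling, with scaling by library totals or with no count filter (adjusted p 0.0519 to 0.135). The XRCC5 call under siRNA 1 was made with limma-voom (adjusted p 0.046). The XRCC5 call between the siRNAs was lost without siRNA 1 replicates 1 or 3 or siRNA 2 replicate 2, or with upper-quartile scaling or with scaling by library totals (adjusted p 0.0527 to 0.0652). The XRCC6 call in the mean of the siRNAs was lost without siRNA 1 replicate 3 or control replicates 1 or 2 (adjusted p 0.0509 to 0.0918).

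Among genes of single-strand break and excision repair, XRCC1, the scaffold of single-strand break repair, was at 35.3, 31.7 and 32.3 CPM under siRNA 1, 30.4, 34.3 and 33.2 CPM under siRNA 2, and 27.9, 27.4 and 28.3 CPM under control siRNA. The siRNA groups overlapped and both lay above the controls, at 0.25 (SE 0.06, adjusted p = 0.00756) and 0.23 (SE 0.06, adjusted p = 0.0145). PARP1, which marks strand breaks with poly(ADP-ribose), was at 355, 354 and 363 CPM under siRNA 1, 413, 422 and 412 CPM under siRNA 2, and 358, 355 and 362 CPM under control siRNA. Its siRNA 1 and control libraries overlapped, at 0.00 (SE 0.02, adjusted p = 0.942), and the siRNA 2 libraries lay above all others, at 0.21 (SE 0.02, adjusted p = 4.54e-05). The siRNAs differed by -0.22 (SE 0.02, adjusted p = 8.13e-05). ERCC1, the partner of a nuclease of excision repair, was at 86.9, 88.8 and 86.1 CPM under siRNA 1, 92.4, 92.4 and 96.6 CPM under siRNA 2, and 93.4, 96.6 and 95.2 CPM under control siRNA. The siRNA 1 libraries lay below all others, at -0.12 (SE 0.03, adjusted p = 0.00939), and the siRNA 2 and control libraries overlapped. The XRCC1 call under siRNA 2 was lost without siRNA 2 replicates 2 or 3 or control replicate 2 (adjusted p 0.051 to 0.0646). The ERCC1 call in the mean of the siRNAs was made without siRNA 2 replicate 3, or with scaling by library totals or with a minimum of 1 CPM in 3 libraries (adjusted p 0.0218 to 0.0381). The ERCC1 call between the siRNAs was lost without siRNA 1 replicates 1, 2 or 3, siRNA 2 replicate 3 or control replicate 3, or with upper-quartile scaling, with scaling by library totals or with only the compared groups in the fit (adjusted p 0.0506 to 0.123).

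For a ranking of levels between genes, levels were divided by length, in TPM from the exon union of GENCODE 29, which reads low for a gene with rarely used exons. In control siRNA cells XRCC6 stood highest at 792 TPM, above 99.5% of tested genes, and was followed by XRCC5 at 349 TPM, PARP1 at 162 TPM and PRKDC at 124 TPM. FANCL came next at 71.2 TPM. The lowest levels were those of FANCF at 7.14 TPM, ATM at 6.87 TPM and MSH3 at 3.39 TPM, the last above 36.9% of tested genes. Across the 44 genes the log2 change in the mean of the siRNAs and the control level had a Spearman rho of -0.05, given as a description, since all points come from the same libraries.

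**Figure D4:**
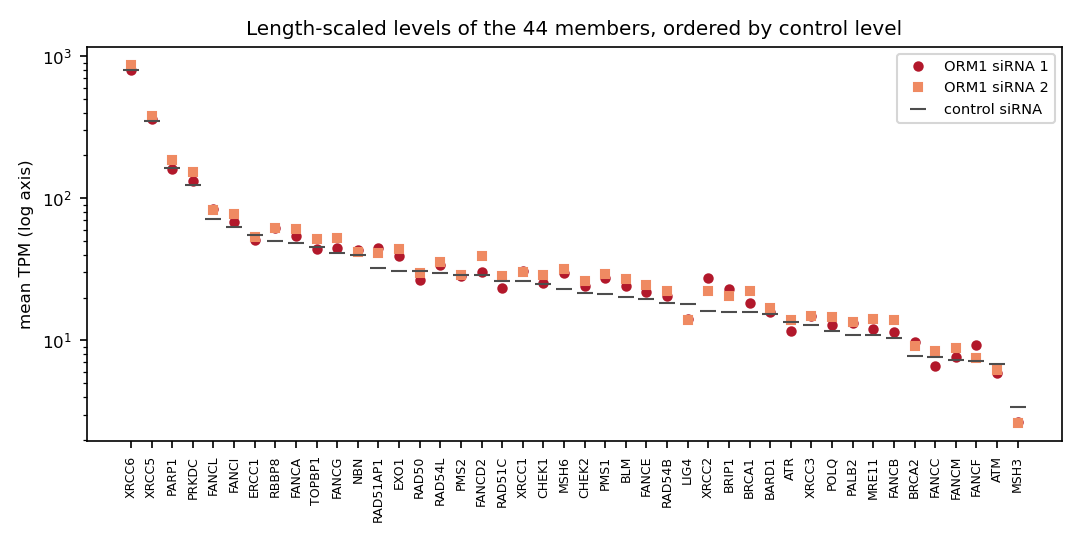
Mean TPM of the 44 genes in ORM1 siRNA 1 (circles), ORM1 siRNA 2 (squares) and control siRNA (dashes), on a log axis, in order of the control level. The genes run from 792 TPM (XRCC6) to 3.39 TPM (MSH3) in control cells, and the differences between groups are small beside those between genes.

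Several of the 44 genes share exon sequence with a neighbour, and without a stated strand setting the reads of both cannot be told apart. For XRCC3, 76.7% of the exon bases lie in exons of KLC1 on the other strand, and KLC1, at -0.13 and -0.17 on the log2 scale, was called lower under both siRNAs while XRCC3 was called higher. RAD50 shares 79.7% of its exon bases with AC116366.3 on the same strand, which had 197 counts in all against 52416 for RAD50. RAD54B shares 59.1% with FSBP on the same strand, and FSBP was called higher under siRNA 1 at 0.59. ERCC1 shares 28.6% with CD3EAP, which was called lower under siRNA 1 at -0.32 as ERCC1 was. FANCA shares 23.6% with ZNF276 and MSH6 16.2% with FBXO11, and both neighbours were lower in the mean of the siRNAs while FANCA and MSH6 were higher. FANCL shares 18.7% with VRK2, which was higher too, at 0.22, and RAD54L 25.1% with LRRC41, which was called lower under siRNA 2. The part of these neighbours in the counts of the 44 genes was not tested.

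Other genes of the same pathways were counted from 8 further lists, in the mean of the siRNAs, beside the 16.2% and 15.3% of all tested genes called higher and lower. These lists were also chosen with earlier results of these data known. In the replication checkpoint and fork protection list 13 of 18 were higher and 2 lower (median log2 change 0.23). ZRANB3, a translocase that remodels forks, averaged 11.4 ± 0.650 CPM under siRNA 1, 11.9 ± 1.76 CPM under siRNA 2 and 8.15 ± 1.49 CPM under control siRNA, and WEE1, the kinase that restrains CDK1, averaged 97.5 ± 2.26 CPM under siRNA 1, 94.9 ± 4.93 CPM under siRNA 2 and 71.4 ± 2.51 CPM under control siRNA. The 2 lower genes were HUS1 at -0.33 and RAD9A at -0.27, subunits of the clamp that recruits TOPBP1, whose other subunit RAD1 was called higher at 0.13. These 3 were named after their values were seen. In the double-strand break chromatin list 6 of 17 were higher and 1 lower, and SHLD3, a subunit of the shieldin complex that limits resection, averaged 2.57 ± 0.0437 CPM under siRNA 1, 2.22 ± 0.430 CPM under siRNA 2 and 1.28 ± 0.377 CPM under control siRNA. ABRAXAS1, the scaffold of the BRCA1-A complex, averaged 25.5 ± 1.12 CPM under siRNA 1, 26.2 ± 0.373 CPM under siRNA 2 and 15.6 ± 0.719 CPM under control siRNA, whereas BRCC3, the deubiquitinase of that complex, was the lower gene at -0.30 and was named after its value was seen.

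In the list of other recombination and resolution genes 10 of 26 were higher and 1 lower, with HROB, a helicase loader, at 0.49 and SFR1, a recombinase accessory factor, at 0.41. In the list of other Fanconi and crosslink genes 7 of 13 were higher and 1 lower, with CENPS, a partner of FANCM, at 0.36 and UBE2T, the ubiquitin-conjugating enzyme of the pathway, at 0.36. Base excision repair held 8 of 18 higher and 1 lower, with UNG, which removes uracil, at 0.58 and LIG1, the ligase of replication, at 0.37. Other end joining genes stood at 4 of 12 higher and 2 lower, with XRCC4 at 0.62 and TDP1, which clears blocked ends, at 0.23. Translesion synthesis had 3 of 10 higher and 2 lower, with PCLAF, a partner of PCNA, at 0.73 and the polymerase POLI at -0.24. Nucleotide excision repair was close to the background, with 2 of 18 higher and 1 lower, and both higher genes, GTF2H3 at 0.46 and GTF2H2 at 0.18, encode subunits of the general factor TFIIH. The genes called lower in these lists were MUS81, FAAP20, NEIL1, PAXX, TDP2, POLH, POLI and ERCC3, with log2 changes of -0.24 (POLI) to -0.11 (ERCC3) apart from FAAP20 at -0.26 and MUS81 at -0.25, and the higher ones not yet named in the short lists were POLL, LIG3, REV1 and RAD18, at 0.13 to 0.19, all of these named after their values were seen apart from POLI.

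Lists of cell cycle genes moved with the repair genes and are given beside them. They too were chosen with earlier results of these data known. Of all tested genes, 16.2% were called higher and 15.3% lower in the mean of the siRNAs. These shares were 15.7% and 14.8% under siRNA 1 and 14.2% and 12.6% under siRNA 2. In a list of S phase and replication genes 22 of 24 were higher and 0 lower in the mean of the siRNAs, with 13 higher and 2 lower (MCM6 and CDC6, named after their values were seen) under siRNA 1 and 23 higher and 0 lower under siRNA 2. Their summed level was 3266 to 3314 CPM under siRNA 1, 4045 to 4133 CPM under siRNA 2 and 2882 to 2966 CPM under control siRNA. In a list of G2 and mitosis genes 22 of 22 were higher, and 17 higher and 0 lower under siRNA 1 and 22 higher and 0 lower under siRNA 2. Their summed level was 3598 to 3607 CPM under siRNA 1, 4052 to 4083 CPM under siRNA 2 and 3186 to 3219.8 CPM under control siRNA. Between the siRNAs 20 of 24 S phase genes and 15 of 22 G2 and mitosis genes were lower under siRNA 1, beside 20 of the 44 repair genes and 9.83% of all tested genes. At an unadjusted p under 0.05 edgeR also gave 0 lower genes in these lists in the mean of the siRNAs. The part of the cell cycle genes in the result for the repair genes was not tested.

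**Figure D5:**
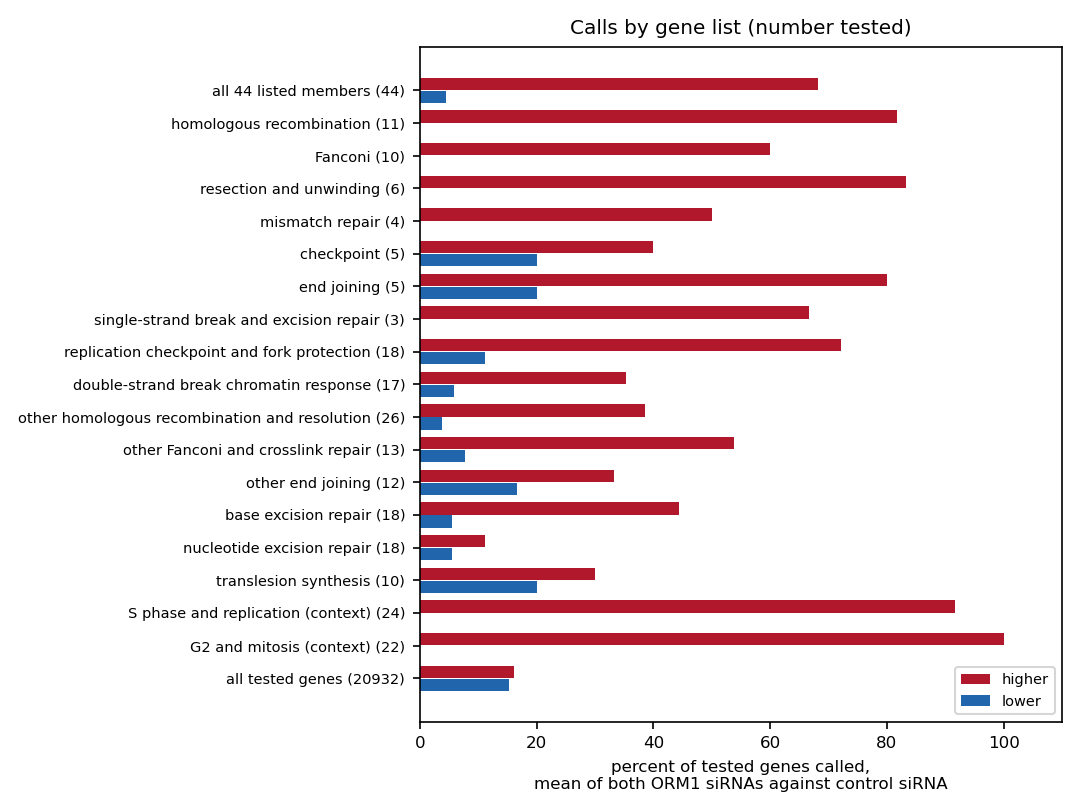
Share of each gene list called higher and lower in the mean of both ORM1 siRNAs against control siRNA, in percent of the genes tested, with the number tested in brackets. The 44 genes reach 68.2% higher and 4.5% lower, all tested genes 16.2% and 15.3%, and the S phase and G2 lists lie at 91.7% and 100% higher. The lists and all tested genes were not matched for level.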

How the data were processed

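RNA-seq of 9 libraries was used in the form of the gene counts that the authors deposited, described as raw in the labels. The build was hg19 per the submitters' processing notes, and the aligner, counter, annotation and strand setting were not stated in the labels or the file. Gene records matched 61757 of 61806 identifiers. GENCODE 29 (GRCh38), which holds 58254 of them, gave coordinates and exon lengths.

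Genes passing filterByExpr (20932) were scaled by TMM and tested in 1 quasi-likelihood model with a term per group (edgeR 4.0.16, R 4.3.3), with Benjamini-Hochberg adjustment over all tested genes and a threshold of 0.05. The SE is the size of the log2 change over the square root of F. Replicates differed by more than counting noise (chi-square of 9.01 to 13.7 per degree of freedom) and were kept separate. The test was also run on simulated counts, and the outcome is not reported here. A gene that was not called is not thereby shown to be unchanged.

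The members and lists were chosen with earlier results of these data known. The listed symbol FIRRM was not matched. By rule, each library's value is given for up to 4 called genes per role with the largest change in the mean of the siRNAs and for genes called between the siRNAs, and up to 2 called genes are named per further list. Alternatives were DESeq2 1.42.0, limma-voom 3.58.1, upper-quartile, median-of-ratios and library-total scaling, other count filters, fits restricted to the compared groups, a replicate block, and each library left out in turn.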

Additional observations from a re-analysis of the deposited data

Results flagged for a closer look

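In 5 genes the siRNAs had log2 changes of opposite sign against control, and the difference between the siRNAs passed edgeR's test with Benjamini-Hochberg adjustment over all tested genes. The share of all tested genes with this pattern was not computed. Between the siRNAs, 8.09% of all tested genes were called higher and 9.83% lower. Under the alternatives the siRNA 1 change of PARP1 ranged over -0.0186 to 0.0096 and the siRNA 2 change of ATR over -0.0035 to 0.12, so that the opposite sign did not hold throughout for these 2 genes. The differences are log2 values of siRNA 1 minus siRNA 2. RAD51C differed by -0.3064, with all siRNA 1 libraries below and all siRNA 2 libraries above the controls. Its call under siRNA 2 (edgeR adjusted p = 0.0404) was lost in 8 of 18 alternatives. FANCC differed by -0.3664, although neither siRNA was called against control. ATR differed by -0.265 and was called lower under siRNA 1, while its siRNA 2 libraries overlapped the controls (edgeR adjusted p = 0.45). TOPBP1 differed by -0.2528 and PARP1 by -0.2168, and both were called higher under siRNA 2, with siRNA 1 libraries that overlapped the controls. Neither was called under siRNA 1 (edgeR adjusted p = 0.559 for TOPBP1 and 0.942 for PARP1), so the sign of those changes is not settled. In each of the 5 genes every siRNA 1 library was below every siRNA 2 library. With 3 libraries per group, no single library was tested for standing apart.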

How the results depend on the processing

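No call among the 44 genes reversed its direction under any alternative run. The mean of the siRNAs has no fit restricted to the compared groups, since it uses all groups. Leaving out 1 library at a time gave 17 to 22 genes higher and 3 to 7 lower under siRNA 1, 29 to 32 higher and 1 to 2 lower under siRNA 2, and 28 to 31 higher and 1 to 3 lower in the mean of the siRNAs. The 3 lower genes under siRNA 1 came without siRNA 1 replicate 3 and without control replicate 3, and the 2 under siRNA 2 without control replicate 2. The 1 lower gene in the mean of the siRNAs came without siRNA 1 replicate 3 and without control replicates 1 or 3. Between the siRNAs the same step gave 0 to 1 higher and 15 to 20 lower genes, with 0 higher without siRNA 2 replicate 3. In the mean of the siRNAs, scaling by library totals gave 4 lower genes, adding RAD50 and ERCC1, and no count filter gave 1, as ATM lost its call. The cause was not tested. Calls kept under every alternative were 20 of 26 under siRNA 1, 30 of 33 under siRNA 2, 27 of 32 in the mean of the siRNAs and 15 of 21 between the siRNAs.

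The labels number the replicates 1 to 3 in each group. Deviations from the group means correlated at -0.057 to 0.051 between same-numbered libraries and at -0.18 to 0.234 between others, so the numbers were not taken as pairs. With the replicate number as a block, all 26, 33, 32 and 21 calls were kept, and BARD1 under siRNA 2 (adjusted p 0.0482) and RAD50 in the mean of the siRNAs (adjusted p 0.0194) were added. The spread between libraries was widest for FANCB under siRNA 1 (coefficient of variation 29.15%), MSH3 under siRNA 2 (14.99%) and FANCF under control siRNA (17.86%).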
